A study of Arabidopsis thaliana with 4 samples.

Results

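PUB19, PUB22 and PUB23, which encode plant U-box ubiquitin ligases, and STZ (ZAT10), which encodes a zinc finger repressor, were followed across 2 temperatures and 2 light qualities in seedlings of Arabidopsis thaliana. Each gene had 1 named probe set, and all 4 passed the filter on dim signals, as did 13648 of the 22746 probe sets of the array that are no controls. They were chosen from earlier values of these same arrays, with their light and temperature differences known, so every level and difference of the 4 genes below is a description and no test is given. The probe sets were 264217_at for PUB19 (AT1G60190), 252045_at for PUB22 (AT3G52450), 263935_at for PUB23 (AT2G35930) and 261648_at for STZ (AT1G27730).

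All plants were of the La-er accession and were phyA-2 mutants, deficient in the photoreceptor phytochrome A. The allele is not numbered in the label of the low R:FR group at 16 °C, which reads phyA. Seedlings grew on soil at 16 or 22 °C in white light of 100 µmol per square metre per second whose red to far-red ratio (R:FR) was 4.4. In the high R:FR groups this light lasted for all 5 days, and in the low R:FR groups an R:FR of 0.1 replaced it for the last 24 h. RNA came from cotyledons with some hypocotyl, and each of the 4 groups was measured on 1 array. No wild-type group was analysed here, so every value belongs to phyA mutants, and PHYA itself had 0 named probe sets. In such tissue extracts, fewer cells of a type and less RNA per cell cannot be told apart.

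A U-box is a protein domain that binds a ubiquitin-conjugating enzyme, and a U-box ligase passes ubiquitin from that enzyme to the proteins it selects, often marking them for the proteasome. PUB22, PUB23 and their close relative PUB24 are known to dampen immune signalling triggered by microbial patterns, and PUB22 and PUB23 also restrain drought responses. PUB19, with its relative PUB18, is known to restrain responses to abscisic acid and drought. STZ is a zinc finger protein with a repressor motif whose transcript is known to respond fast to cold, salt, drought and excess light.

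The arrays had the same trimmed mean signal, 100.01, and medians between 36.0 and 40.6. With 1 array per group there is no replicate error, and 2 stand-ins are given instead. For 18 probe sets of transcripts added at hybridization, the SD of log2 differences lay between 0.205 and 0.231 in the comparisons of 2 arrays, which covers hybridization and later steps only. A gene's local SD is the spread (scaled median absolute deviation) of the same log2 difference among its 500 nearest probe sets by mean signal, and it holds real differences of those genes as well as error. Of the labelled tissue's markers, 0 of 8 listed green cotyledon genes had a named probe set, so that check could not be made with them. Of the photosystem II antenna genes outside that list, LHCB4.1 had signals between 3774 and 4110. LHCB4.2 had 1133 and 814 in high and low R:FR at 16 °C and 1506 and 1164 at 22 °C, and LHCB4.3 had 386 and 286, then 308 and 363. The latter 2 were lowest in low R:FR at 16 °C, the array on which PUB22, PUB23 and STZ were also lowest, and the part of green tissue in the results was not tested.

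The first question was how low R:FR bore on the transcripts at the lower temperature. At 16 °C, 3 of the 4 genes had a lower signal in low R:FR and 1 had a higher one, all by more than 2-fold. PUB22 was 3.13-fold lower, PUB23 5.61-fold lower, STZ 4.37-fold lower, and PUB19 3.58-fold higher. Over all measured probe sets, 2.9% passed 2-fold downwards and 1.84% upwards in this comparison, which had a part in the choice of the genes.

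For PUB23 the signal was 112 in high and 19.9 in low R:FR at 16 °C, and 138 in high and 153 in low R:FR at 22 °C. The low R:FR array of 16 °C thus stood alone, while the other 3 arrays lay within a narrow band. From low to high, the gap to the next array was log2 2.49 against a local SD of 0.32, and the remaining gaps were log2 0.31 (local SD 0.34) and 0.15 (local SD 0.27). Neither of these smaller gaps is resolved by that scale.

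PUB22 had signals of 68.0 and 21.7 in high and low R:FR at 16 °C, and of 60 and 77.6 at 22 °C. It repeated the order of PUB23 in its main feature, the low R:FR array of 16 °C lying below the rest. The lowest gap was log2 1.47, against a local SD of 0.47, and the gaps among the other 3 arrays were 0.18 and 0.19, both within the local SD. PUB22 and PUB23 are related genes. Whether their probe sets cross-hybridize was not tested, although neither identifier carries the suffix of a probe set shared between transcripts.

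STZ had a signal of 278 in high R:FR at 16 °C and of 63.5 in low R:FR, and at 22 °C of 535 and 333. It was the only one of the 4 genes whose signal was lower in low R:FR at both temperatures. Its lowest gap was log2 2.13 (local SD 0.27), between the low and the high R:FR arrays of 16 °C. The next gap, log2 0.26 between high R:FR at 16 °C and low R:FR at 22 °C, was within the local SD of 0.43, and the highest, log2 0.68 between the light conditions at 22 °C, was above the local SD of 0.22.

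PUB19 had a signal of 22.6 in high R:FR at 16 °C and of 80.9 in low R:FR, and at 22 °C of 147 and 129.6. Its lowest array was the high R:FR array of 16 °C, not the low R:FR one. The gap to the next array was log2 1.84 (local SD 0.33), followed by log2 0.68 (local SD 0.42) between 16 and 22 °C in low R:FR. The light conditions at 22 °C were log2 0.19 apart, within the local SD of 0.27.

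**Figure D1:**
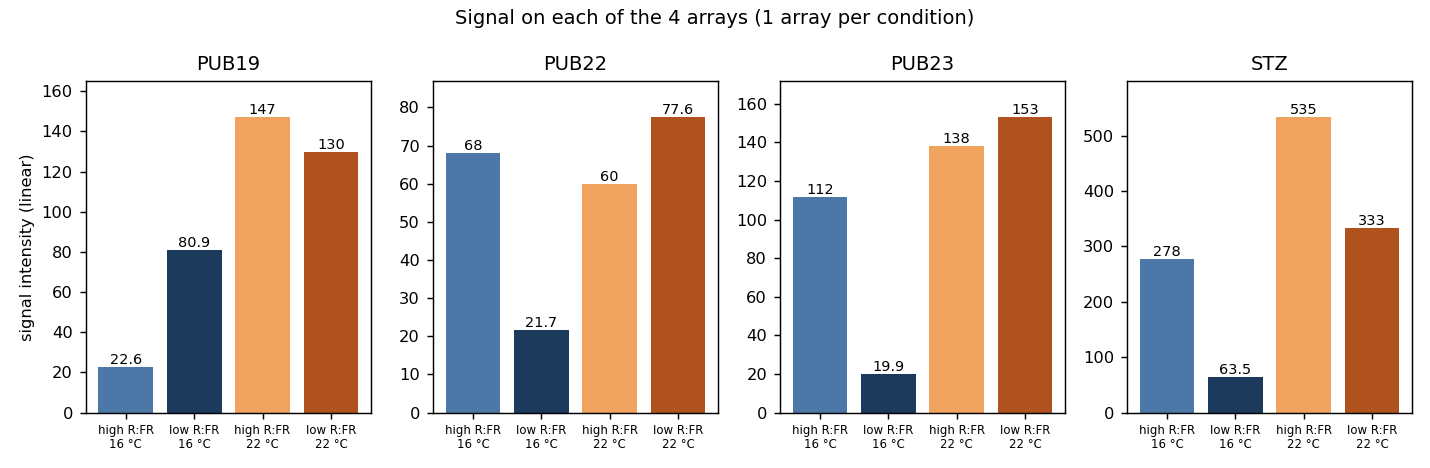
Bars show the linear signal intensity of each gene on each of the 4 arrays, with 1 array per condition and no error bar because no condition was repeated; each panel has its own axis. PUB22, PUB23 and STZ are lowest in low R:FR at 16 °C (21.7, 19.9 and 63.5), and PUB19 is lowest in high R:FR at 16 °C (22.6).

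The lowest signals of PUB19, PUB22 and PUB23 were dim. They lay above the floor of 14.5 to which lower signals were raised, and above 17.9, the highest signal of the bacterial control probe sets that nothing in the sample should bind, but by a small margin. With the floor at the 50th percentile of signals, 37.8, the light difference at 16 °C was 2.96-fold for PUB23, 2.14-fold for PUB19 and 1.80-fold for PUB22, which no longer passed 2-fold. STZ, whose lowest signal was above both floors, kept log2 -2.13 with either floor. With a pseudocount equal to the lower floor, PUB23 was at log2 -1.88 and STZ at -1.91.

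**Figure D2:**
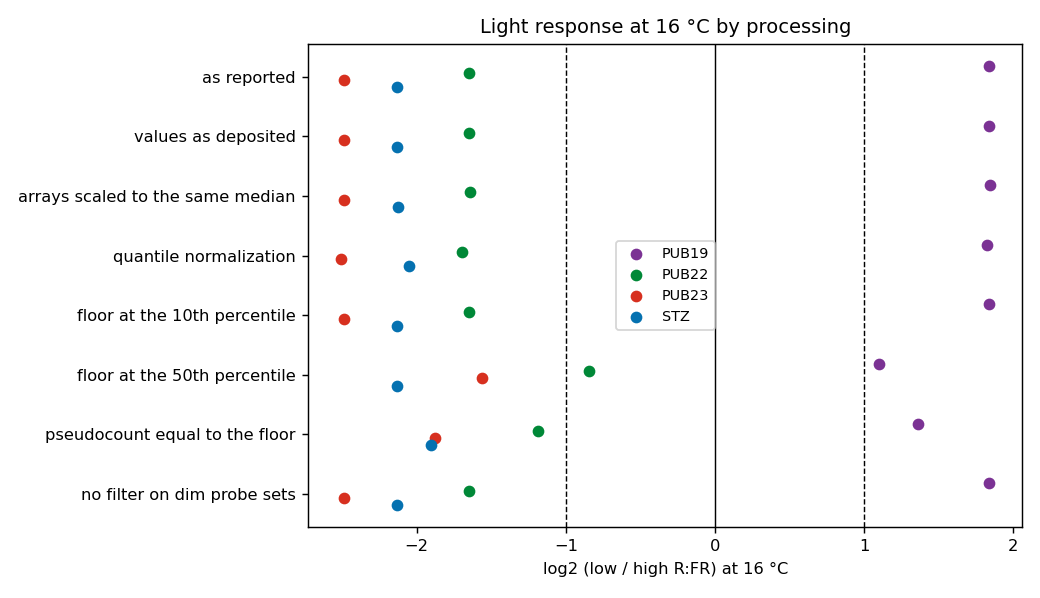
The horizontal axis is the log2 ratio of low to high R:FR at 16 °C, the rows are processing settings, each point is 1 gene, and dashed lines mark 2-fold. All points of PUB22, PUB23 and STZ lie below 0 and those of PUB19 above 0, and PUB22 with the floor at the 50th percentile (-0.85) is the only point inside the dashed lines.

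At 22 °C none of the 4 genes differed by 2-fold between the light conditions. PUB23 was at log2 0.15, PUB22 at 0.37, PUB19 at -0.19 and STZ at -0.68. Of all measured probe sets, 1.01% passed 2-fold upwards and 0.498% downwards, and with arrays scaled to the same median the counts turned from 138 higher and 68 lower to 105 and 89. STZ, 1.61-fold lower in low R:FR, was 256th from the lowest among the 13648 changes, and its difference exceeded the local SD of 0.22. PUB22 exceeded its local SD of 0.31 by little, and PUB19 and PUB23 lay within theirs.

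The series was designed to ask whether temperature alters the light response. Taken as log2 at 16 °C minus log2 at 22 °C, the difference was -2.64 for PUB23, -2.02 for PUB22, -1.45 for STZ and 2.03 for PUB19, with local SDs of 0.43, 0.48, 0.33 and 0.40. All 4 genes thus passed 1 on the log2 scale, 3 below and 1 above 0. Over all measured probe sets the shares were 4.16% at or below -1 and 2.31% at or above 1. With the floor at the 50th percentile the differences were -1.71 for PUB23, -1.22 for PUB22 and 1.28 for PUB19, and that of STZ was the same. With a pseudocount PUB23 was at -2.01 and STZ at -1.24. This quantity adds the error of 4 arrays, and the added transcripts had an SD of 0.363 for it. Harvest was at day 5 at both temperatures, so temperature and growth stage cannot be told apart.

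**Figure D3:**
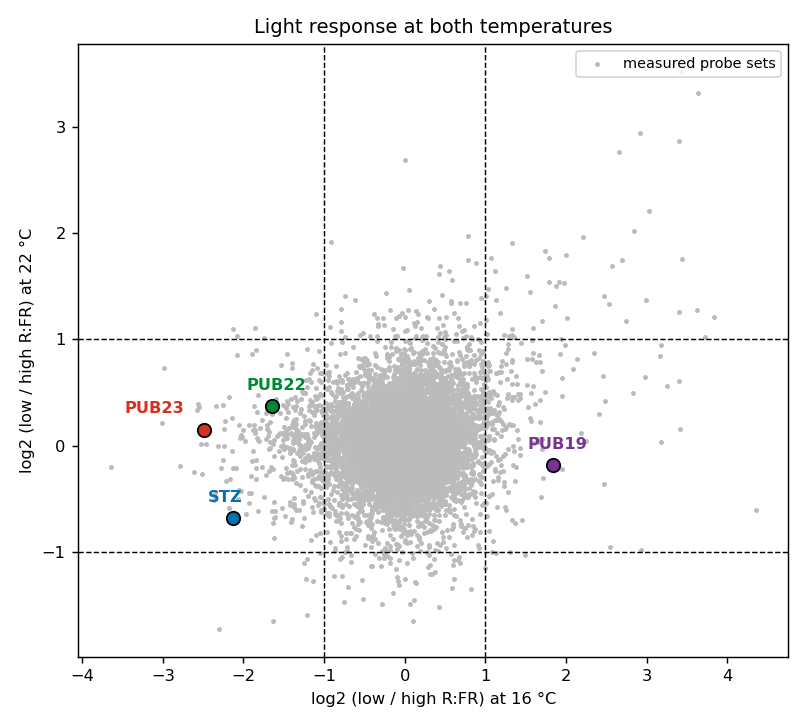
Each grey point is a measured probe set, placed by its log2 ratio of low to high R:FR at 16 °C (horizontal) and at 22 °C (vertical), with dashed lines at 2-fold. PUB22, PUB23 and STZ lie left of the dashed line at 16 °C (-1.65, -2.49 and -2.13), PUB19 lies to the right (1.84), and all 4 lie between the dashed lines at 22 °C.

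The temperatures were also compared within each light condition. In high R:FR, PUB19 was 6.52-fold lower at 16 than at 22 °C, which placed it 10th from the lowest of all measured probe sets, or 3.90-fold with the floor at the 50th percentile. STZ was at log2 -0.94 (local SD 0.35), PUB23 at -0.31 and PUB22 at 0.18, the latter 2 within the local SDs of 0.34 and 0.43. So 1 of the 4 genes was at least 2-fold lower and 0 higher, beside 3.17% and 1.11% of all measured probe sets. Scaling to the same median turned the counts over all probe sets from 151 higher and 432 lower to 224 and 310.

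In low R:FR all 4 genes had a lower signal at 16 than at 22 °C, 3 of them by more than 2-fold. PUB23 was 7.71-fold lower at 16 than at 22 °C, STZ 5.24-fold lower and PUB22 3.58-fold lower, while PUB19 was 1.60-fold lower. Thus 3 of 4 genes were at least 2-fold lower and 0 higher, beside 6.61% and 1.62% of all measured probe sets, where 221 higher and 902 lower became 423 and 644 with scaling to the same median. That scaling moved the median of all measured probe sets by 0.12 in high and by 0.17 in low R:FR on the log2 scale. With the floor at the 50th percentile PUB23 was 4.06-fold and PUB22 2.05-fold lower, and STZ kept its value. With a pseudocount PUB23 was at log2 -2.29 and STZ at -2.15.

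These comparisons share arrays, so they are not separate pieces of evidence. The low R:FR array of 16 °C enters both the light difference at 16 °C and the temperature difference in low R:FR. There PUB22, PUB23 and STZ were 2-fold or more below each of the other arrays, as were 1.9% of all measured probe sets, and the same held for PUB19 in high R:FR at 16 °C, with 0.513% of them. With the floor at the 50th percentile, the filter at the 60th or 3-fold in place of 2-fold, PUB22 dropped out. PUB23, STZ and PUB19 remained. RNA quality can be read from the 3' to 5' ratio of 6 control pairs, whose log2 averaged 0.82 in high and 0.54 in low R:FR at 16 °C, and 0.73 and 0.64 at 22 °C. The part of RNA quality in the results was not tested.

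The rest of the U-box family gave few measured genes. Of 45 listed family members 25 bore that name in the gene table used here, 9 of these could be tied to a probe set and 6 were measured, among them PUB19, PUB22 and PUB23. The other 3 were PUB24, PUB43 and PUB49, whose log2 light responses had a median of 0.02 at 16 °C and of 0.21 at 22 °C. For light, 0 of the 3 passed 2-fold at either temperature. Over all measured probe sets, 2.9% were at least 2-fold lower and 1.84% higher at 16 °C, and 0.498% and 1.01% at 22 °C. All 6 together had a median of -0.42 at 16 °C, which includes the 3 genes chosen with their light differences known and so is a description. Over the family members that each setting kept, the median was 0 with the floor at the 50th percentile or with no filter on dim probe sets.

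PUB24, the third member of the immune trio, had a signal of 55 in high R:FR at 16 °C and of 30.5 in low R:FR, and at 22 °C of 78.5 and 90.6. Its lowest array was also the low R:FR array of 16 °C. It was at log2 -0.85 (local SD 0.40) for light at 16 °C and at 0.21 (local SD 0.28) at 22 °C, and at -1.57 (local SD 0.48) for 16 against 22 °C in low R:FR, where it passed 2-fold. The difference of its light responses was -1.06, smaller in size than those of PUB22 and PUB23. PUB43 had signals between 31.1 and 53.6 and PUB49 between 60.7 and 75.4, with no comparison past 2-fold. PUB25 and PUB26, which are known to act on the immune kinase BIK1, and PUB15 were too dim to count as measured.

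Partners and substrates of the U-box ligases were listed as 13 genes, of which 2 had a named probe set. RPN12a, a subunit of the proteasome lid and a known target of PUB22 and PUB23, had signals of 529 and 549 in high and low R:FR at 16 °C and of 421 and 415 at 22 °C. Its light responses, log2 0.05 and -0.02, were within the local SDs of 0.24 and 0.20. BIK1, a receptor-associated kinase of immune signalling, had signals of 167 and 109 at 16 °C and of 157 and 239.7 at 22 °C. Its light responses, log2 -0.62 and 0.61, had opposite signs, and the difference of -1.24 compared with a local SD of 0.36. Of the 4 comparisons of 2 arrays, BIK1 passed 2-fold in 1, at log2 -1.14 for 16 against 22 °C in low R:FR.

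Among 32 listed transcription factors known for fast responses to stress, 3 had a named probe set. All 3 were measured, and all belong to the WRKY family of defence regulators. For light at 16 °C, 2 of the 3 were at least 2-fold lower and 0 higher, beside 2.9% and 1.84% of all measured probe sets. The median log2 of the 3 was -1.34, where that of all measured probe sets was 0.01. WRKY6 had signals of 60.2 and 20.2 at 16 °C and of 104.8 and 113 at 22 °C. WRKY53 had 90.4 and 35.8 at 16 °C and 112 and 107 at 22 °C. Both were lowest in low R:FR at 16 °C, as were PUB22, PUB23 and STZ. WRKY22, at 79.9 and 54.8, then 105 and 115, had the same lowest array and did not pass 2-fold for light. In low R:FR all 3 were at least 2-fold lower at 16 than at 22 °C, beside the 6.61% of all measured probe sets given above. With the floor at the 50th percentile the median at 16 °C was -0.67. The list was drawn up with earlier results of these data known, so its counts are a description.

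Genes known for early responses to elicitors, wounding or touch were listed as 34, of which 2 were measured. EXO, an extracellular protein gene tied to growth under brassinosteroid, had signals of 56.1 and 36.3 in high and low R:FR at 16 °C and of 108 and 63.5 at 22 °C. CML38, which encodes a calmodulin-like calcium sensor, had signals of 25.1 and 2.9 at 16 °C and of 41.2 and 22.1 at 22 °C. As with STZ, both were lower in low R:FR at each temperature, by log2 values between -0.63 and -0.90 in which the floor limits that of CML38 at 16 °C. None passed 2-fold. Of 11 listed repressors of the STZ type, only STZ had a named probe set, so the others could not be looked at. The reference genes PEX4 and GAPC2 (of 11 listed, the 2 with a named probe set) had log2 light responses between -0.15 and 0.15.

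**Figure D4:**
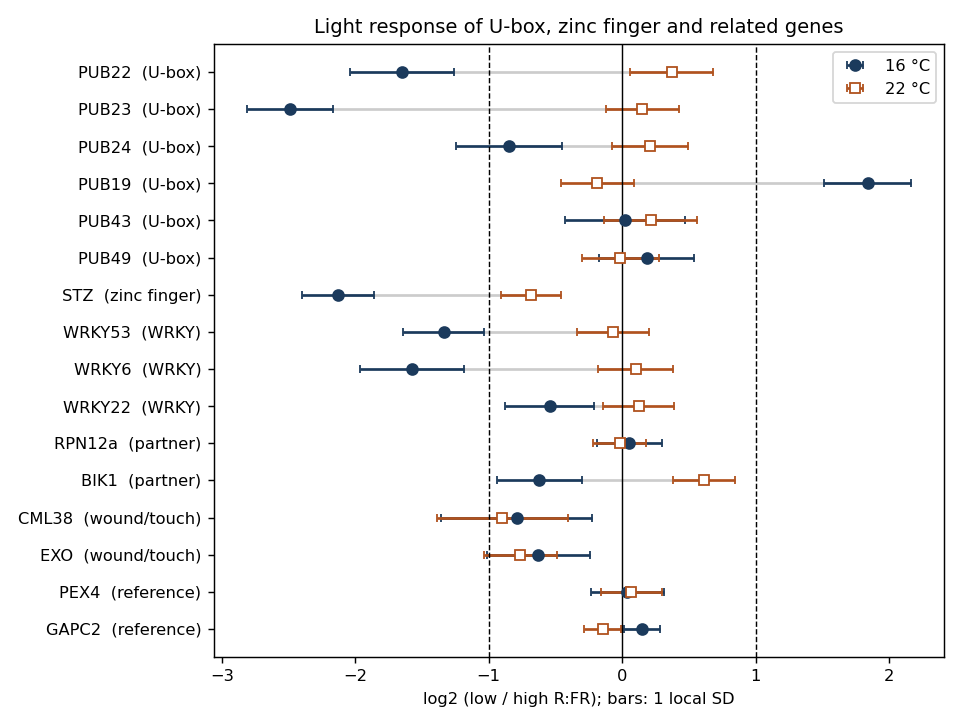
Points give the log2 ratio of low to high R:FR at 16 °C (filled circles) and 22 °C (open squares), bars 1 local SD, and dashed lines 2-fold. Shown are the measured U-box, STZ, WRKY, partner, wound or touch and reference genes. Abscisic acid, drought and cold genes and tissue markers are not shown. At 16 °C PUB22, PUB23, STZ, WRKY53 and WRKY6 lie beyond the lower line, and of the genes shown PUB19 lies beyond the upper one. All genes shown lie between the lines at 22 °C.

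Other tissues were looked for through listed markers. Of 6 root genes, only PYK10, a beta-glucosidase of root and hypocotyl, had a named probe set. Its signals were 2024 and 1083 in high and low R:FR at 16 °C, and 2913 and 2835 at 22 °C, so it shared its lowest array with PUB22, PUB23 and STZ. The part of root or hypocotyl tissue in the results was not tested. FMA (FAMA), a guard cell regulator and the only one of 4 listed guard cell genes with a named probe set, had signals between 63.2 and 78.6. CLV3, of the shoot apex, was at or below 6.0 on every array, and 0 of 6 seed genes had a named probe set.

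The genes most like each of the 4 were taken as the 5 with the smallest Euclidean distance between log2 signals centred over the 4 arrays, among the 1079 measured probe sets with a gene symbol. Within the group of 4, PUB23 and STZ were nearest, at a distance of 0.64, then PUB22 and PUB23 at 1.01 and PUB22 and STZ at 1.17, whereas PUB19 lay between 2.64 and 3.07 from the other 3. Each distance rests on 4 arrays that the genes share, so it is a description.

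Nearest to PUB22 was CW14, at 0.05, followed by ZCF37 (0.23), the glutaredoxin gene GRX480 (0.24), YLS5 (0.32) and the subtilase gene SBT3.5 (0.34). GRX480 had signals of 87.0 and 34.5 in high and low R:FR at 16 °C, and of 89.8 and 119.7 at 22 °C. The signals of CW14 and ZCF37 in low R:FR at 16 °C, 11.9 and 3.7, lay below the floor, which limits their distances. Nearest to PUB23 were the peroxidase gene Prx37 (0.42), the methionine sulfoxide reductase gene MSRB9 (0.47), STZ, WRKY6 (0.65) and the beta-glucosidase gene BGLU46 (0.69). The list of STZ held PUB23, WRKY6 (0.68), MSRB9 (0.77) and the lectin genes JAL22 (0.72) and JAL33 (0.82). JAL22 had signals of 260.5 and 116 at 16 °C and of 716 and 530.2 at 22 °C, and so had, like STZ, its highest value in high R:FR at 22 °C. PUB23 and STZ were thus on each other's lists, and WRKY6 and MSRB9 were on both. Over all measured probe sets, with or without a symbol, 20 lay nearer to STZ than PUB23 did, and 21 nearer to PUB23 than STZ did.

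PUB19 had other neighbours in profile. They were EXLB1, an expansin-like gene (0.76), the chloroplast-encoded ndhD (0.85) and rps2 (1.02), WES1 (GH3.5), whose enzyme conjugates auxin to amino acids (0.96), and SIS (1.07). All 5 had their lowest signal in high R:FR at 16 °C, such as 29.2 for EXLB1 against 60.4, 100.5 and 143 in low R:FR at 16 °C, high and low R:FR at 22 °C. Unlike PUB19, at log2 -0.19, all 5 were higher in low than in high R:FR at 22 °C, from 0.50 for EXLB1 to 1.0 for rps2. Probe sets without a symbol were nearer still, with 7 closer to PUB19 than EXLB1 was.

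**Figure D5:**
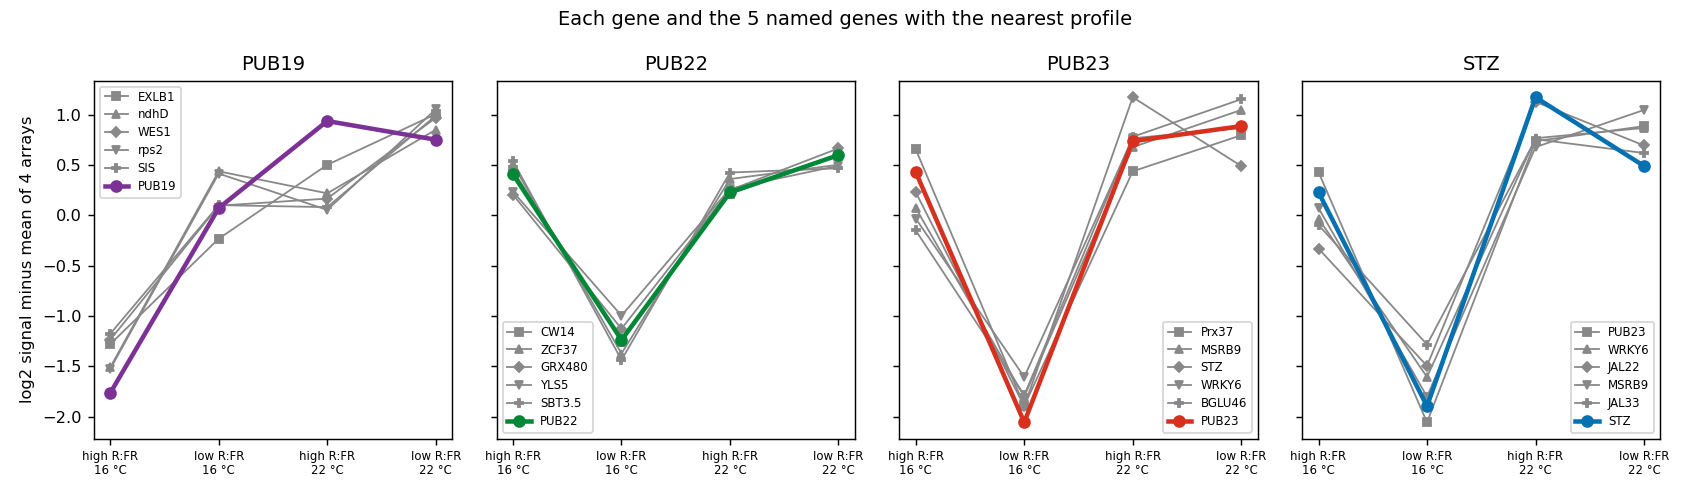
Lines give log2 signal minus its mean over the 4 arrays, with signals under 14.5 raised to that floor, for each of the 4 genes (coloured) and its 5 nearest named genes (grey) by condition. Profiles near PUB22, PUB23 and STZ dip in low R:FR at 16 °C, and those near PUB19 dip in high R:FR at 16 °C.

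The position of the genes was not part of the choice. Among the 2 annotated genes on either side of each of the 4, 16 in all, 6 could be tied to a probe set and 3 passed the filter on dim signals. None of the 6 was a neighbour of STZ, so nothing can be said about its surroundings. AT1G60200, next to PUB19, was at log2 0.03 for light at 16 °C, AT2G35920, next to PUB23, at 0.34, and AT3G52470, near PUB22, at -0.23. None of the 3 passed 2-fold in any comparison of 2 arrays, beside shares of all measured probe sets between 0.498% and 6.61% in each direction.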

How the data were processed

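Total RNA of 4 groups was hybridized to 1 Affymetrix array each. The authors deposited linear signal intensities. Per the submitters' processing notes they come from MAS5, whose version, scaling target and detection calls the sources used here do not give. Equal trimmed means show whole-array scaling, so each value is relative to its array.

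From these intensities, arrays were scaled to the same 2% trimmed mean. Signals below the 30th percentile (14.5) were raised to it, which shrinks differences of dim genes, and log2 was taken. Controls (64 probe sets) were dropped. Of 22746 others, 13648 with a mean log2 at or above the 40th percentile (signal 23.2) counted as measured. Of the 22746, 13513 had 1 gene, of which 13436 were matched to RefSeq's table (TAIR10.1), 503 had several genes and 8730 were unnamed here. Listed genes count only where that table gives the listed name for the listed locus.

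With 1 array per group no test was run, and 2-fold is a rule of size. The steps were tested on simulated data with large changes in bright probe sets. That test does not cover dim signals such as the lowest of PUB19, PUB22 and PUB23. The 4 genes, the gene lists and the rule for named genes (the 4 genes, listed genes past 2-fold or nearest the list median, and the 5 most alike) were chosen with earlier results of these data known. Alternatives covered scaling, floor, filter and fold. Sequences were not used here. Tools were Python 3.11.15, numpy 2.4.6, pandas 2.3.3 and matplotlib 3.10.9.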

Additional observations from a re-analysis of the deposited data

Results flagged for a closer look

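For 3 of the 4 genes the light responses at 16 and 22 °C had opposite signs, with 1 array on each side, so that each difference was not tested. The response at 16 °C minus that at 22 °C was 2.03 on the log2 scale for PUB19, from 1.84 and -0.19. It was -2.02 for PUB22, from -1.65 and 0.37. It was -2.64 for PUB23, from -2.49 and 0.15. Of the responses at 22 °C, those of PUB19 and PUB23 lay within 1 local SD of 0.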

How the results depend on the processing

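The number of the 4 genes past 2-fold stayed within 1.5 times its value in all 5 comparisons under 9 alternatives. Of the 12 differences past 2-fold, all kept their sign under 7 settings of scaling, floor and filter (84 values), and 83 of the 84 stayed past 2-fold. The exception was PUB22 for light at 16 °C with the floor at the 50th percentile (-0.85), and PUB22 was not measured with the filter at the 60th percentile. Values as deposited, a floor at the 10th percentile and no filter could not move these differences, so they add no check. The deposited arrays already shared a trimmed mean, and all signals of the 4 genes lay above 14.5. In the order light at 16 °C, light at 22 °C, their difference, temperature in high and in low R:FR, the counts of all probe sets past 2-fold were 647, 206, 883, 583 and 1123. With the floor at the 50th percentile they were 324, 81, 408, 294 and 680, with a pseudocount 360, 71, 457, 272 and 690, with the filter at the 60th percentile 310, 66, 337, 252 and 600, and at 3-fold 183, 31, 231, 102 and 327. A higher floor, a pseudocount and a stricter filter each shrink or remove dim probe sets by construction. The count of probe sets 2-fold lowest in low R:FR at 16 °C, 259, was 128, 164, 152 and 65 under these settings, which were applied to it after seeing the data. No paired analysis was possible because each group holds 1 array. Dim signals limit PUB19, PUB22 and PUB23 most, since their lowest values are near the floor.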

Other observations

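Genes of the abscisic acid, drought and cold responses were in part higher in low R:FR at 16 °C, where PUB22, PUB23 and STZ were lower. All 4 genes, PUB19, PUB22, PUB23 and STZ, are known to be tied to some of these responses. Of 22 listed genes 5 were measured, and 3 of them were at least 2-fold higher in low R:FR at 16 °C and 0 lower, beside 1.84% and 2.9% of all measured probe sets. As this list was also drawn up with earlier results of these data known, its counts are a description. The signal of COR15A, a gene for a membrane-protecting protein of chloroplasts in the cold, went from 15.3 in high to 314 in low R:FR, the former near the floor of 14.5, and its paralog COR15B from 55.2 to 588. The dehydrin gene LTI30 had 41.2 and 85.4 in high and low R:FR at 16 °C, where PUB19 had 22.6 and 80.9. At 22 °C 0 of the 5 passed 2-fold in either direction, beside 1.01% higher and 0.498% lower of all measured probe sets. In low R:FR 4 of the 5 were at least 2-fold higher at 16 than at 22 °C, while PUB19 was 1.60-fold lower. These 4 were COR15A, COR15B, LTI30 and COR27, and over all measured probe sets 1.62% (221) were at least that much higher, or 423 with arrays scaled to the same median. In high R:FR 2 of the 5 were also at least 2-fold higher at 16 °C, COR15B (log2 1.20) and COR27 (1.34), and 0 lower. Over all measured probe sets those shares were 1.11% and 3.17%.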
